A study of Rattus norvegicus with 18 samples.

Results

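The genes described here encode the subunits of voltage-gated sodium and calcium channels. They were chosen by symbol, as every gene of the array annotation named Scn with a number and a or b, or named Cacn followed by a, b or g, and each was represented by its probe set with the highest mean over 18 arrays. On such an array the short probes matching 1 transcript are combined into a probe set with 1 signal. The rule found 36 genes among the 14218 with a probe set of 1 symbol, and 25 of them were above the low-signal filter and entered the tests. That filter kept a probe set if 3 or more arrays gave it a signal over that array's 40th percentile.

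The arrays measured messenger RNA of rat hippocampal neurons in dissociated culture, 3 arrays in each of 6 groups. MEF2 RNAi neurons carried lentiviral shRNAs against MEF2A and MEF2D and Control neurons carried lentiviral control shRNAs, both from day 3 in vitro, and each arm was sampled after 0, 1 and 6 h in 55 mM KCl on day 10. All groups, the 0 h ones included, were first held for 1 h in the NMDA receptor blocker AP5 and the sodium channel blocker TTX, so the 0 h cultures had been silenced. The labels call the arrays biological replicates 1 to 3 and do not say which cultures or litters they came from, so p-values measure the spread between these samples. The rat strain, the age and the shRNA sequences were not given in the labels.

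A voltage-gated channel is built around 1 large pore-forming protein, the alpha subunit of a sodium channel or the alpha1 subunit of a calcium channel. Sodium channels start and carry the action potential, and their beta subunits are cell adhesion proteins that set gating and surface level. Calcium channels turn depolarization into calcium entry, which triggers transmitter release and signals to the nucleus, and L-type calcium channels are known as a route by which KCl drives transcription in neurons. The alpha2delta and beta subunits bring calcium channels to the membrane, and several gamma subunits act mainly as partners of AMPA-type glutamate receptors. MEF2 proteins are transcription factors whose activity in neurons is switched by calcium signals.

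The promoters of 4 genes with called changes are shown, to set the letters of these windows beside the signals that differed with RNAi or KCl. Each is the 250 bases before the annotated start in RefSeq assembly GRCr8, written 5′ to 3′ on the gene's strand. Capitals mark TGACG, the core of the cAMP response element, and the AP-1 motif TGANTCA, searched on both strands.
Scn2b, chr8:54322133-54322382 (+ strand): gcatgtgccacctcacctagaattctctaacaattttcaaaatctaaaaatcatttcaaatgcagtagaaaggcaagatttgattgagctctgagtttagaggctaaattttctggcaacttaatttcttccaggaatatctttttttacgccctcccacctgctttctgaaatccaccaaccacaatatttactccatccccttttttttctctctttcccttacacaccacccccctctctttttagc
Scn3a, chr3:70666199-70666448 (- strand): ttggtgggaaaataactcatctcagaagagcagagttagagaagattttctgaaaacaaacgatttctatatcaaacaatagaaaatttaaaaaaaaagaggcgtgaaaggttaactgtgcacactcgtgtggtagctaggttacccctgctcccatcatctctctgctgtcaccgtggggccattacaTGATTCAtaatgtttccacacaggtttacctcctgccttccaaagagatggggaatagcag
Cacnb2, chr17:82596542-82596791 (+ strand): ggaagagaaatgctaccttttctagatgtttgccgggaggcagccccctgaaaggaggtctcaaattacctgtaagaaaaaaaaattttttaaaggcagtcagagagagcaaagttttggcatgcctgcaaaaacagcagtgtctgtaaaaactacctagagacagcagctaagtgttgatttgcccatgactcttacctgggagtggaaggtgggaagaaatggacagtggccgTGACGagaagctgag
Cacna1b, chr3:27944286-27944535 (- strand): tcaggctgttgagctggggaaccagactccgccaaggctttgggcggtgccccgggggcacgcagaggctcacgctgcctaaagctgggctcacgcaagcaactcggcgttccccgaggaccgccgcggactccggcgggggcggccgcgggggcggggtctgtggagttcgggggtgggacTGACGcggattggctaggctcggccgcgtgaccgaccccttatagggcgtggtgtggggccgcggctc
The RefSeq table held promoters of 26 of the 36 genes, 17 of them above the filter. The core was in 4 of the 26, in Cacna1b at bases -68 to -64, Cacna1c at -146 to -142, Cacnb2 at -15 to -11 and Scn10a at -133 to -129, against 18.8% of 27457 promoters. The AP-1 motif was in 1, Scn3a at -61 to -55, against 6.41% of promoters. The full cAMP response element, TGACG followed by TCA, was in 0 of 26 (1.68% of promoters), and so was the MEF2 motif (3.04% of promoters). A match to the full element is also a match to its core. The E-box CANNTG was in 19 of 26, against 65.4% of promoters, and TATAAA in 2, against 13.2%. The Scn2b window held neither motif marked in capitals. Among called genes with a promoter that is not shown, Cacna1c held the core, and Scn2a, Cacna1d, Cacna2d3 and Cacng2 held neither motif. Scn3b, whose difference with RNAi averaged over the 3 times was the largest in size among the 25 genes, has no entry in the table. On chromosome 3, the annotated starts of Scn3a and Scn2a lie 44758 bases apart.

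The arrays had medians of 240 to 248 and correlated at 0.994 to 0.998 within groups (Pearson, log2 signal, all probe sets). All 15 general neuron markers examined were above the filter, and so were 10 astrocyte markers. Both targeted genes were lower with RNAi. Averaged over the 3 times, Mef2a fell by 1.80 on the log2 scale (SE 0.06; adjusted p = 1.42e-11) and Mef2d by 0.50 (SE 0.04; adjusted p = 3.5e-07). Genes known to be induced by depolarization rose with KCl in Control neurons, Fos by 4.30 and Arc by 3.02 on the log2 scale at 1 h, and Bdnf by 3.42 at 6 h.

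Of the 25 genes above the filter, 20 passed it on all 18 arrays. The other 5 did so on fewer: Cacna1d and Cacng3 on 12, Cacng4 on 7, Cacna1f on 5 and Cacna1i on 3. None of the 25 was at the floor of 72.6 on any array, the table's 20th percentile to which lower signals were raised. The 11 genes below the filter were not tested and are given as dim: Scn4a, Scn7a, Scn8a, Scn9a, Scn11a, Cacna1s, Cacnb4, Cacng1, Cacng5, Cacng6 and Cacng8. Scn8a, a main sodium channel of the adult brain's axons, was among them, with signals of 59.1 to 70.6 on the 18 arrays. Cacna1s, the channel of skeletal muscle, had 43.4 to 51.9, and Scn9a, a channel of sensory neurons, had 37.3 to 43.7. These 3 genes and Cacng1 (43.5 to 53.5) were at the floor on all 18 arrays. The muscle channel Scn4a had 80.0 to 110, and Scn7a 85.1 to 157, the widest range of the dim genes. A dim probe set says only that this probe set was not bright.

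Most sodium channel genes and some calcium channel genes above the filter were lower with MEF2 RNAi, and none was called higher. Averaged over the 3 times, 8 of the 25 genes were lower than in Control and 0 were higher, at an adjusted p under 0.05. Of all 10934 genes tested, 37.6% were called in that comparison, 16.6% lower and 20.9% higher. The 8 were 4 of the 7 sodium channel genes (Scn3b, Scn2b, Scn3a and Scn2a) and 4 of the 18 calcium channel genes (Cacna1c, Cacna1g, Cacng2 and Cacng7). The median log2 difference was -0.39 over the sodium channel genes and -0.09 over the calcium channel genes, against 0.01 over all genes. At single times the counts were smaller, 3 lower at 0 h, where 14.9% of all genes were called, 6.19% lower and 8.66% higher. At 1 h 4 were lower, where 17.1% were called, 9.12% lower and 7.98% higher, and at 6 h 3 were lower, where 17.2% were called, 8.55% lower and 8.67% higher. Only Scn3b and Scn2b were called at each of the 3 times, as were 7.43% of all genes. Signals did not overlap between arms for 9, 9 and 8 of the 25 genes at 0, 1 and 6 h, against 29.8%, 34.1% and 33.6% of all genes. In these bulk samples fewer cells of a type and less RNA per cell cannot be told apart.

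**Figure D1:**
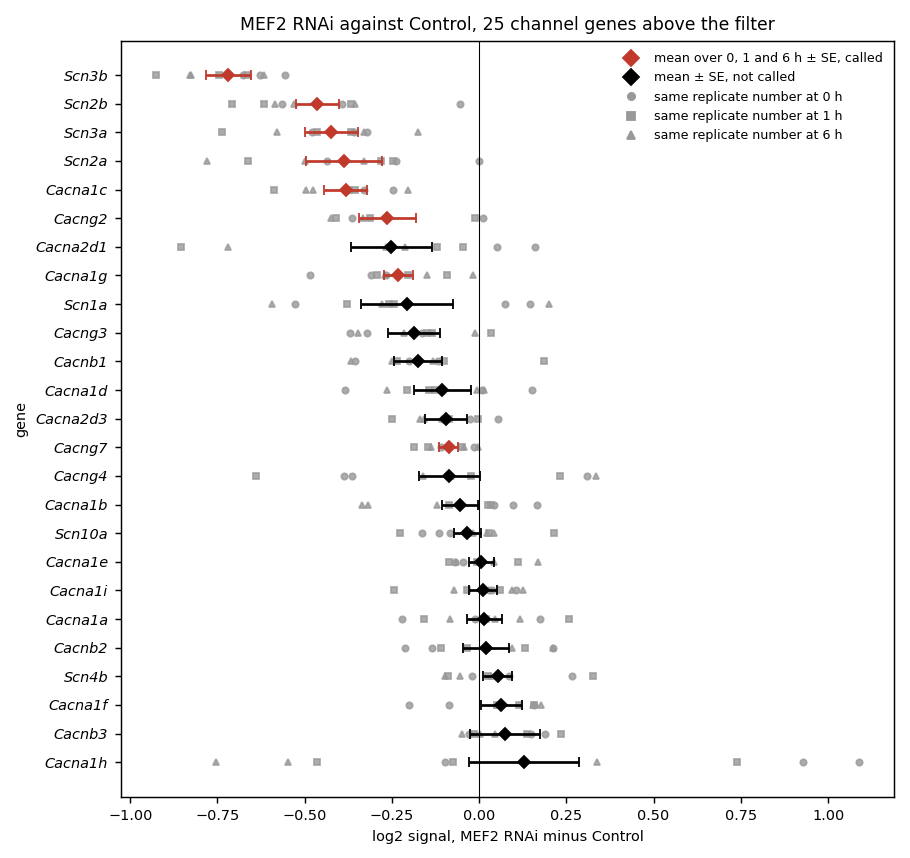
Differences in log2 signal, MEF2 RNAi minus Control, for the 25 genes above the filter, ordered by their mean over 0, 1 and 6 h. Diamonds are the fitted means with their SE, red where called, and grey points are the 9 differences between arrays of the same replicate number at the same time. Scn3b, Scn2b, Scn3a and Scn2a form the left end, and no gene called lies right of 0.

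Scn3b encodes a sodium channel beta subunit. At 0 h its signals were 3349, 3512 and 3726 in RNAi arrays, against 4929, 5620 and 5761 in Control arrays. At 1 h they were 2703, 3244 and 3438 in RNAi arrays, against 5136, 5440 and 5447 in Control arrays. At 6 h they were 2547, 3034 and 3507 in RNAi arrays, against 4522, 5374 and 5376 in Control arrays. The groups did not overlap at any time, and every RNAi array lay below every Control array. Scn3b fell by 0.62, 0.78 and 0.76 on the log2 scale at 0, 1 and 6 h (SE 0.11; adjusted p = 0.0016, 0.000215 and 0.000346) and by 0.72 on average (SE 0.07; adjusted p = 5.15e-07), 1.65-fold. A separate Scn3b probe set gave -0.75 on average (SE 0.13; adjusted p = 0.000244).

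Scn2b, another beta subunit gene, differed less between arms and also with KCl. It had 971, 968 and 1254 in RNAi arrays at 0 h, against 1436, 1272 and 1302 in Control arrays. After 1 h it had 888, 919 and 1087 in RNAi arrays, against 1449, 1410 and 1402 in Control arrays. After 6 h it had 631, 570 and 584 in RNAi arrays, against 911, 729 and 876 in Control arrays. The arms did not overlap at any time, but RNAi replicate 3 at 0 h came close to the Control arrays. Scn2b fell by 0.34 at 0 h (SE 0.11; adjusted p = 0.0449), 0.56 at 1 h (adjusted p = 0.0019) and 0.49 at 6 h (adjusted p = 0.00527), and by 0.46 on average (SE 0.06; adjusted p = 2.61e-05). The 0 h call was lost without RNAi 0 h replicate 1 or 2 (adjusted p = 0.14 and 0.161) and without Control 0 h replicate 1, 2 or 3 (0.132, 0.07 and 0.0817). It was also lost, at 0.051 to 0.0561, without RNAi 1 h replicate 2, RNAi 6 h replicate 2 or 3, Control 1 h replicate 1, 2 or 3, or Control 6 h replicate 3. It was lost too with only the 0 h groups fitted (0.118), with no filter (0.0719) and with the mean of both Scn2b probe sets (0.0826). The other Scn2b probe set is dim and lay under the floor on every array, so that mean only scales down the brighter one. The third beta subunit gene above the filter, Scn4b, ranged from 159 to 201 over all arrays and was called in no comparison.

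Among the pore-forming sodium channels, Scn3a, a form abundant in the embryonic brain, was lower with RNAi. It had 403, 504 and 496 in RNAi arrays at 0 h, against 561, 630 and 637 in Control arrays. Its 1 h signals were 384, 493 and 458 in RNAi arrays, against 639, 636 and 633 in Control arrays. Its 6 h signals were 548, 823 and 737 in RNAi arrays, against 819, 930 and 927 in Control arrays. The arms overlapped at 6 h alone, through RNAi replicate 2. The differences were -0.39 at 0 h (SE 0.13; adjusted p = 0.0594), -0.52 at 1 h (adjusted p = 0.0113) and -0.36 at 6 h (adjusted p = 0.0699), and Scn3a fell by 0.42 on average (SE 0.08; adjusted p = 0.000366). With the replicate number as a block, the 0 h and 6 h differences were called too (adjusted p = 0.00261 and 0.00376). The 1 h call was lost without RNAi 1 h replicate 1 (adjusted p = 0.0654).

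Scn2a, a major sodium channel of excitatory neurons, spread more between replicates. It had 1240, 1684 and 2031 in RNAi arrays at 0 h, against 1679, 1987 and 2033 in Control arrays. At 1 h it had 1208, 1540 and 1705 in RNAi arrays, against 1913, 1829 and 2072 in Control arrays. At 6 h it had 890, 1304 and 1414 in RNAi arrays, against 1530, 1638 and 1997 in Control arrays. The arms overlapped at 0 h and not at 1 h or 6 h, and within each RNAi group replicate 1 was the dimmest. Scn2a fell by 0.39 on average (SE 0.11; adjusted p = 0.0103), with single-time differences of -0.23, -0.40 and -0.54 (SE 0.19; adjusted p = 0.48, 0.171 and 0.0619). With the replicate block the 1 h and 6 h differences were called (adjusted p = 0.00771 and 0.000976). Between arrays of the same replicate number and time, Scn2a was lower with RNAi in 9 of 9 differences, the smallest being -0.0015. So were Scn3a, Scn2b and Scn3b, and the calcium channel genes Cacna1c, Cacna1g and Cacng7. The share of all genes with 9 of 9 was not counted.

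Scn1a, a sodium channel prominent in inhibitory neurons, differed by -0.21 on average (SE 0.13; adjusted p = 0.239) and was lower with RNAi in 6 of 9 same-number differences. Scn10a, known from sensory neurons, ranged from 178 to 216 over the 18 arrays and differed by -0.03 on average (SE 0.04; adjusted p = 0.532). Neither was called in any comparison of the arms.

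**Figure D2:**
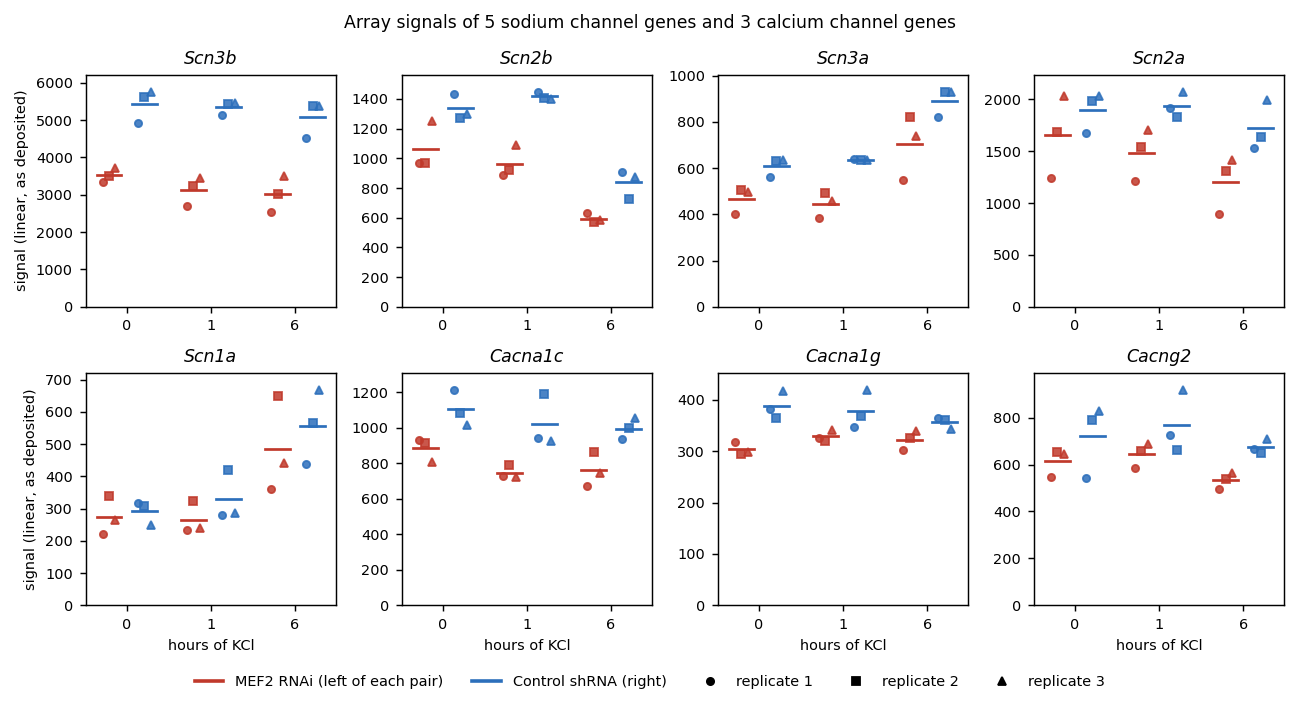
Array signals, on the linear scale as deposited and starting at 0, of 5 sodium channel genes and 3 calcium channel genes after 0, 1 and 6 h of KCl. Points are single arrays with symbols for the replicate number, bars are means of 3 arrays, and MEF2 RNAi (red) stands left of Control (blue). Scn3b and Scn2b arrays do not overlap between arms at any time, while Scn1a arrays do at all 3.

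Of the 9 calcium channel alpha1 genes above the filter, 2 were lower with RNAi on average. Cacna1c encodes the main L-type channel of brain and heart. It had 932, 916 and 807 in RNAi arrays at 0 h, against 1211, 1087 and 1014 in Control arrays. At 1 h it had 729, 793 and 722 in RNAi arrays, against 944, 1191 and 925 in Control arrays. At 6 h it had 673, 867 and 748 in RNAi arrays, against 936, 998 and 1054 in Control arrays. All RNAi arrays lay below all Control arrays of the same time. Cacna1c fell by 0.38 on average (SE 0.06; adjusted p = 0.000168), by 0.44 at 1 h (SE 0.11; adjusted p = 0.0104) and by 0.39 at 6 h (adjusted p = 0.0202), and differed by -0.32 at 0 h (adjusted p = 0.0602, or 0.0191 with the replicate block). The 1 h call was lost without Control 1 h replicate 2 (adjusted p = 0.0557). The 6 h call was lost without RNAi 6 h replicate 1 (0.105) or 3 (0.0585), without Control 6 h replicate 2 (0.0582) or 3 (0.0779), with only the 6 h groups fitted (0.0532) and with the mean of both probe sets (0.0678).

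Cacna1g encodes a T-type channel, which opens near the resting potential. It had 318, 293 and 298 in RNAi arrays at 0 h, against 383, 364 and 417 in Control arrays, with no overlap. Cacna1g fell by 0.35 at 0 h (SE 0.07; adjusted p = 0.00389) and by 0.23 on average (SE 0.04; adjusted p = 0.000434). Its differences at 1 h and 6 h were -0.20 (adjusted p = 0.0804, or 0.0398 with the replicate block) and -0.15 (adjusted p = 0.2). The P/Q-type gene Cacna1a, the N-type gene Cacna1b, the L-type genes Cacna1d and Cacna1f, the R-type gene Cacna1e and the T-type genes Cacna1h and Cacna1i were not called on average. Among them the averages ran to 0.13 in Cacna1h (SE 0.16), whose arrays spread widely and whose difference at 0 h was 0.64 (SE 0.27; adjusted p = 0.135). Cacna1b at 6 h differed by -0.26 (SE 0.09; adjusted p = 0.062), and this was called with the replicate block (adjusted p = 0.00623).

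Neither of the 2 alpha2delta genes and none of the 3 beta genes above the filter was called between the arms by the fit without the block. With the block, Cacna2d1 (-0.25; adjusted p = 0.0162, against 0.102 without it), Cacna2d3 (-0.09; 0.0192 against 0.237) and Cacnb1 (-0.17; 0.007 against 0.054) were called on average. Of the 4 gamma genes, Cacng2, which encodes the AMPA receptor partner stargazin, fell by 0.26 on average (SE 0.08; adjusted p = 0.0179). Its means were 616 ± 59, 644 ± 53 and 534 ± 34 in RNAi arrays at 0, 1 and 6 h, against 720 ± 154, 769 ± 131 and 675 ± 31 in Control arrays (SD, n = 3). The arms overlapped at 0 h and 1 h, and a second Cacng2 probe set gave 0.02 (SE 0.04; adjusted p = 0.743), so the mean of both was not called (-0.12; adjusted p = 0.0806). Cacng7 fell by 0.09 on average (SE 0.03; adjusted p = 0.0212), a change of 1.06-fold. Cacng3 was called with the block alone (-0.19; adjusted p = 0.00266, against 0.0603). With the block 6 genes were lower at 0 h, where 26% of all genes were called and 10.2% were called lower. With the block 6 were lower at 1 h (28.1% called, 13.9% lower), 9 at 6 h (28.2% called, 12.9% lower) and 12 on average (47.8% called, 20.9% lower).

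Some markers of cell types were called with RNAi as well, averaged over the 3 times. Of all genes tested, 16.6% were called lower and 20.9% higher in that comparison. All 6 excitatory neuron markers above the filter were lower on average (Tbr1 was dim). Sums given here are over all listed markers on the array, the dim ones included. The excitatory sums at 0 h were 11892 to 14027 in RNAi arrays, against 15545 to 17749 in Control arrays. At 1 h the sums were 10625 to 12897 in RNAi arrays, against 15914 to 17446 in Control arrays, and at 6 h they overlapped, at 10655 to 12483 in RNAi arrays and 11934 to 12428 in Control arrays. Of the 15 general neuron markers 5 were lower and 1 higher, and of 5 inhibitory neuron markers 3 were lower, with Gad2, Pvalb and Vip dim. Their sums at 0 h were 89001 to 100566 in RNAi arrays and 93240 to 101773 in Control arrays for general neuron markers. For inhibitory ones they were 4708 to 5322 in RNAi arrays and 6073 to 7220 in Control arrays. Of the 10 astrocyte markers 5 were higher, with sums at 0 h of 67141 to 77696 in RNAi arrays, against 57166 to 72801 in Control arrays. Among 7 endothelial and fibroblast markers 3 were lower, with sums at 0 h of 2983 to 3272 in RNAi arrays, against 4259 to 4841 in Control arrays, and Pecam1, Tek and Vwf were dim. Of 7 markers of proliferating and progenitor cells 1 was higher. None of the oligodendrocyte or microglial markers above the filter was called. The part of cell composition in the channel gene differences was not tested.

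After 6 h of KCl some sodium and calcium channel genes were higher and others lower than at 0 h, and after 1 h none was called. In RNAi neurons 8 of the 25 genes were called at 6 h against 0 h, 3 higher and 5 lower, where 40% of all genes were called (14.7% higher and 25.3% lower). In Control neurons 6 were called, 3 higher and 3 lower, where 41.6% of all genes were called (16.1% higher and 25.5% lower). Scn1a, Scn3a and Cacnb2 rose and Scn2b, Cacna1b and Cacna1d fell in both arms, 6 of 8 called in RNAi neurons and 6 of 6 called in Control neurons. Of all genes, 31.7% were called in both arms. The median log2 difference over the 25 genes was -0.05 in RNAi neurons and -0.03 in Control neurons, against -0.02 over all genes in each. With the replicate block 12 were called in RNAi neurons, where 49.7% of all genes were, and 8 in Control neurons, where 50.3% were. Among the added calls was Cacnb1, at 0.22 in RNAi neurons (adjusted p = 0.0428, against 0.162 without the block) and 0.24 in Control neurons (0.0253 against 0.121). Some cell type markers were called at 6 h too, beside the shares of all genes above. Of 5 inhibitory neuron markers 2 were higher in each arm, and of 7 endothelial and fibroblast markers 1. Of 15 general neuron markers 1 was lower in RNAi neurons, and 1 was higher and 1 lower in Control neurons. The same held for the 10 astrocyte markers. No oligodendrocyte, microglial or progenitor marker was called. The inhibitory sums, dim markers included, were 6308 to 7983 at 6 h against 4708 to 5322 at 0 h in RNAi neurons. In Control neurons they were 7746 to 10523 at 6 h against 6073 to 7220 at 0 h. Of the 6 excitatory neuron markers 1 was higher and 1 lower in RNAi neurons, and 1 higher and 2 lower in Control neurons. The excitatory sums fell without overlap in Control neurons, from 15545 to 17749 at 0 h down to 11934 to 12428 at 6 h. In RNAi neurons they overlapped, at 11892 to 14027 at 0 h and 10655 to 12483 at 6 h. The part of these shifts in the channel gene differences was not tested.

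**Figure D3:**
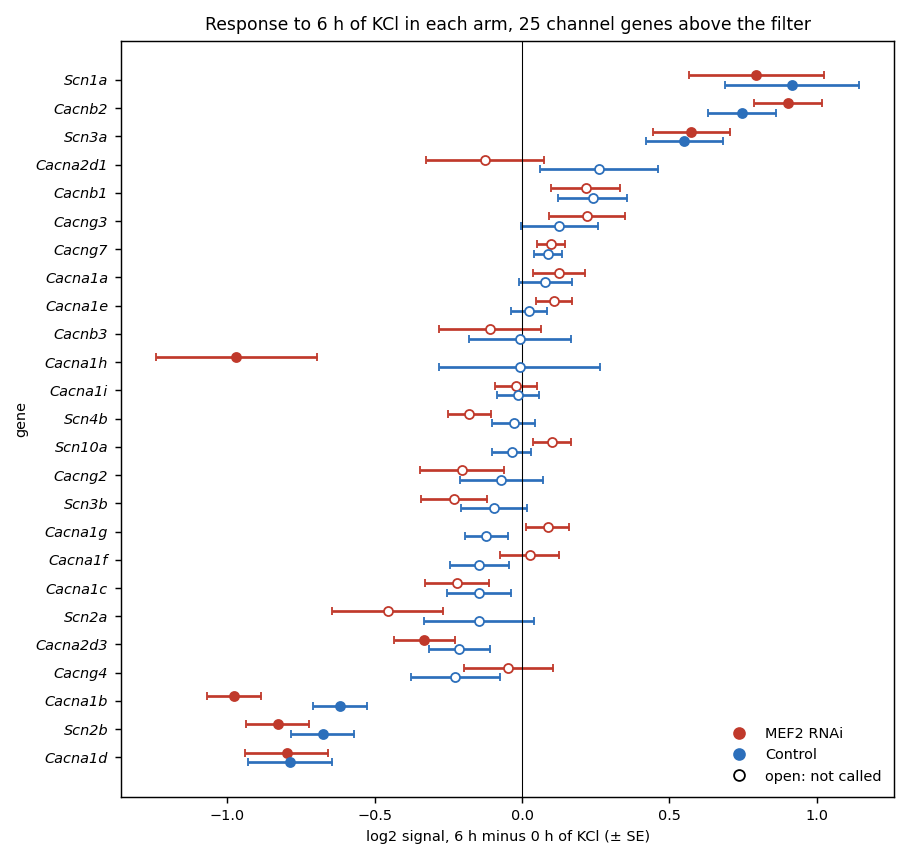
Differences in log2 signal, 6 h minus 0 h of KCl, with SE, for the 25 genes in MEF2 RNAi neurons (red) and Control neurons (blue), ordered by the Control difference. Filled points were called and open points were not. Scn1a, Cacnb2 and Scn3a stand at the top right and Cacna1b, Scn2b and Cacna1d at the bottom left, filled in both arms. Each gene is shown by its probe set with the highest mean, and the other Cacna1b probe set rose.

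Scn1a had 360, 649 and 442 in RNAi neurons at 6 h, against 221, 340 and 264 at 0 h. In Control neurons it had 437, 565 and 667 at 6 h, against 318, 307 and 251 at 0 h. The times did not overlap in either arm. It rose by 0.79 on the log2 scale in RNAi neurons (SE 0.23; adjusted p = 0.0107) and by 0.92 in Control neurons (adjusted p = 0.00406). The RNAi call was lost without RNAi 0 h replicate 1 (adjusted p = 0.0517) or RNAi 6 h replicate 2 (0.0669). Scn3a, with its signals given above, rose by 0.57 in RNAi neurons (SE 0.13; adjusted p = 0.0023) and by 0.55 in Control neurons (adjusted p = 0.00297), with no overlap between the times. Scn3a was thus lower with RNAi and higher with KCl, and Scn2b was lower with both. Scn2b fell by 0.83 in RNAi neurons (SE 0.11; adjusted p = 1.59e-05) and by 0.68 in Control neurons (adjusted p = 9.89e-05). Scn2a differed by -0.46 in RNAi neurons (SE 0.19; adjusted p = 0.0653, or 0.00132 with the replicate block) and by -0.15 in Control neurons (adjusted p = 0.595). Scn3b differed by -0.23 in RNAi neurons (adjusted p = 0.117, or 0.00664 with the block).

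Cacnb2 encodes a beta subunit, which carries the pore to the membrane and shapes its gating. It had 820, 1069 and 1071 in RNAi neurons at 6 h, against 505, 483 and 590 at 0 h. In Control neurons it had 807, 924 and 1003 at 6 h, against 556, 560 and 510 at 0 h. All 6 h arrays lay above all 0 h arrays. It rose by 0.90 in RNAi neurons (SE 0.11; adjusted p = 1.4e-05) and by 0.75 in Control neurons (adjusted p = 7.72e-05). A second Cacnb2 probe set rose too, by 0.48 in RNAi neurons (adjusted p = 0.000171) and 0.45 in Control neurons (adjusted p = 0.000325). The remaining one was dim, at 86.3 to 122, and with the mean of all 3 the rises were 0.56 in RNAi neurons (adjusted p = 2.92e-05) and 0.49 in Control neurons (adjusted p = 0.000105).

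Cacna1d encodes an L-type channel that opens at lower voltages than Cacna1c. It had 117, 150 and 123 in RNAi neurons at 6 h, against 177, 251 and 254 at 0 h. In Control neurons it had 116, 151 and 147 at 6 h, against 232, 225 and 253 at 0 h. The 6 h arrays were the dim ones that failed the filter, which Cacna1d passed on 12 of 18. Cacna1d thus entered the tests, and the counts of genes called at 6 h, only through its brighter 0 h and 1 h arrays. It fell by 0.80 in RNAi neurons (SE 0.14; adjusted p = 0.000298) and by 0.79 in Control neurons (adjusted p = 0.000312), with no overlap. Cacna1d has 2 other probe sets, both dim, with ranges of 128 to 162 and 122 to 154 over all arrays. With the mean of the 3 probe sets it fell by 0.24 in RNAi neurons (adjusted p = 0.00893) and 0.27 in Control neurons (adjusted p = 0.00357).

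Cacna1b encodes the N-type channel of presynaptic terminals. Its brighter probe set had 897, 1168 and 1068 in RNAi neurons at 6 h, against 1942, 2112 and 2084 at 0 h. In Control neurons it had 1119, 1271 and 1348 at 6 h, against 1885, 1976 and 1857 at 0 h. That probe set fell by 0.98 in RNAi neurons (SE 0.09; adjusted p = 6.23e-07), 1.97-fold, and by 0.62 in Control neurons (adjusted p = 4.95e-05), 1.53-fold. The other Cacna1b probe set went the opposite way, up by 0.31 in both RNAi neurons (SE 0.11; adjusted p = 0.0398) and Control neurons (adjusted p = 0.0356). With the mean of both, the difference was -0.34 and called in RNAi neurons (adjusted p = 0.00947) and -0.15 and not called in Control neurons (adjusted p = 0.219). The direction for Cacna1b thus differs between its probe sets.

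A further pair of calcium channel genes was called in RNAi neurons at 6 h and not in Control neurons. Cacna1h, a T-type channel, had 350, 768 and 402 in RNAi neurons at 6 h, against 804, 1086 and 929 at 0 h. In Control neurons it had 591, 608 and 588 at 6 h, against 860, 510.5 and 488 at 0 h. Its log2 difference was -0.97 in RNAi neurons (SE 0.27; adjusted p = 0.00971) and -0.01 in Control neurons (adjusted p = 0.987). The RNAi call was lost without RNAi 6 h replicate 1 (adjusted p = 0.0547), and a second Cacna1h probe set gave 0.14 (adjusted p = 0.222), with a mean of both of -0.41 (adjusted p = 0.0395). Cacna2d3, an alpha2delta subunit, fell by 0.33 in RNAi neurons (SE 0.10; adjusted p = 0.0171) and differed by -0.21 in Control neurons (adjusted p = 0.116, or 0.00336 with the replicate block). Its RNAi call was lost without RNAi 6 h replicate 1 (adjusted p = 0.0785) or RNAi 0 h replicate 2 (0.0602) or 3 (0.0871).

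**Figure D4:**
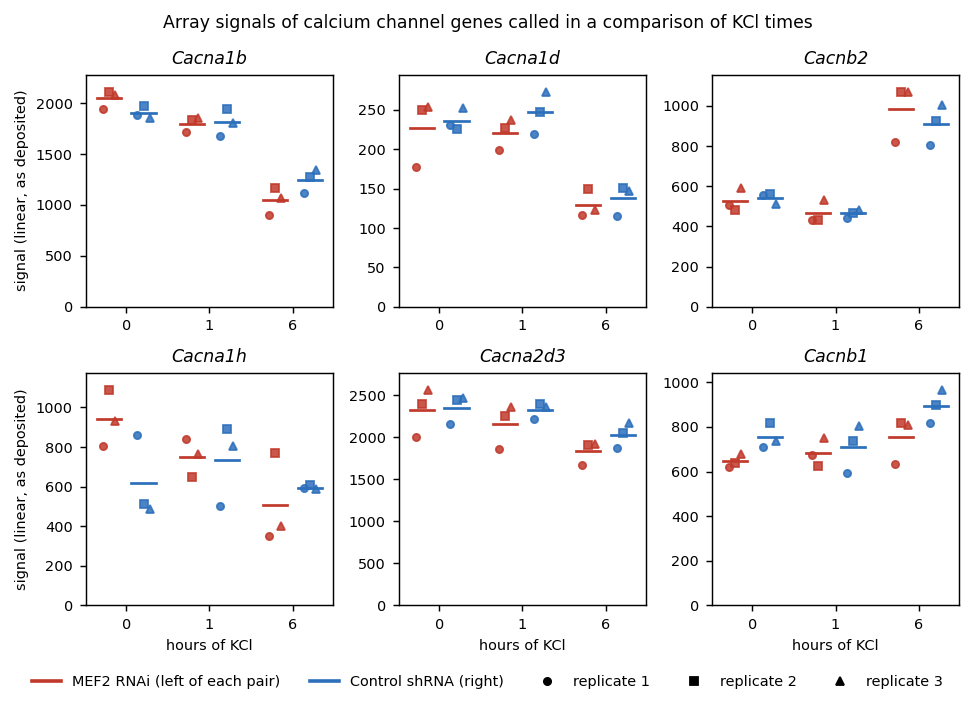
Array signals, on the linear scale as deposited and starting at 0, of 6 calcium channel genes called in a comparison of KCl times. Points are single arrays with symbols for the replicate number, bars are means of 3 arrays, and MEF2 RNAi (red) stands left of Control (blue). Cacna1b and Cacna1d are low and Cacnb2 is high at 6 h in both arms, while Cacna1h spreads widely within groups. Each gene is shown by its probe set with the highest mean, and the other Cacna1b probe set, not shown, rose at 6 h.

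The difference between the arms in the KCl response was tested as an interaction. At 6 h 0 of the 25 genes were called, where 0.119% of all genes were, and at 1 h 0 were called, where 0% of all genes were. Limma gave an unadjusted p under 0.05 to 2 of the 25 at 6 h and to 0 at 1 h. The 2 were Cacna1b, at -0.36 (SE 0.13; unadjusted p = 0.013; adjusted p = 0.403, or 0.067 with the replicate block), and Cacna1h, at -0.96 (SE 0.39; unadjusted p = 0.0247; adjusted p = 0.494, or 0.25 with the block). A response in RNAi neurons that differs from that in Control neurons was therefore not shown for any of the 25 genes.

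At 1 h of KCl 0 of the 25 genes were called in RNAi neurons, where 3.88% of all genes were, and 0 in Control neurons, where 2.7% were. Limma gave an unadjusted p under 0.05 to 1 gene in RNAi neurons (Cacna1c, at -0.24, unadjusted p = 0.0402) and to 0 in Control neurons, and with the replicate block the counts were also 0, where 8.27% and 5.5% of all genes were called. Between 6 h and 1 h in Control neurons 7 were called, 4 higher and 3 lower, where 35.5% of all genes were called (15% higher and 20.4% lower). Cacnb2 (0.97; adjusted p = 9.48e-06), Scn1a (0.76; 0.0156), Scn3a (0.49; 0.00847) and Cacnb1 (0.34; 0.0352) rose. Scn2b (-0.77; adjusted p = 4.35e-05), Cacna1d (-0.85; 0.000224) and the brighter Cacna1b probe set (-0.54; 0.000221) fell. With the replicate block 9 were called, where 44.8% of all genes were, the added ones being Cacna2d3 (-0.20; adjusted p = 0.00693, against 0.162 without it) and Cacng3 (0.27; 0.0101 against 0.126). The Scn1a call was lost without Control 1 h replicate 1 (adjusted p = 0.0625) or 3 (0.0615) or Control 6 h replicate 3 (0.0755). The Cacnb1 call was lost without Control 1 h replicate 1 (0.183) or 2 (0.0504), without Control 6 h replicate 2 (0.0828) or 3 (0.13), with only those groups fitted (0.0801) and with no filter (0.0604). The Cacna1b call was lost with the mean of both probe sets (-0.11; adjusted p = 0.39).

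Probe sets of 1 gene differed in some cases. A second probe set above the filter existed for Scn3b, Cacnb2, Cacna1b, Cacna1h, Cacnb1, Cacng2, Cacna1a and Cacna1i, and the other probe sets of Scn2b, Cacna1c and Cacna1d were dim, as were 3 of the 5 of Cacna1a and 1 of the 3 of Cacnb2. With the mean of a bright and a dim probe set, the average RNAi difference was -0.23 in Scn2b (adjusted p = 0.000106) and -0.20 in Cacna1c (adjusted p = 0.00036), both still called. With the mean of both Scn2b probe sets, the 6 h KCl difference was -0.41 in RNAi neurons (adjusted p = 6.59e-05) and -0.34 in Control neurons (adjusted p = 0.00036). Both Scn3b probe sets were lower with RNAi and both Cacnb2 probe sets above the filter rose at 6 h, but those of Cacna1b moved in opposite directions. The less bright Cacnb2 probe set above the filter was higher with RNAi on average (0.13; SE 0.05; adjusted p = 0.0339), which the brighter one was not. The other Cacna1i probe set, at 132 to 187, rose at 6 h in RNAi neurons (0.33; SE 0.08; adjusted p = 0.00467) and was higher with RNAi at 6 h (0.32; adjusted p = 0.0155), while the brighter one was called in no comparison. What part of each transcript a probe set reads was not analysed here.

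**Figure D5:**
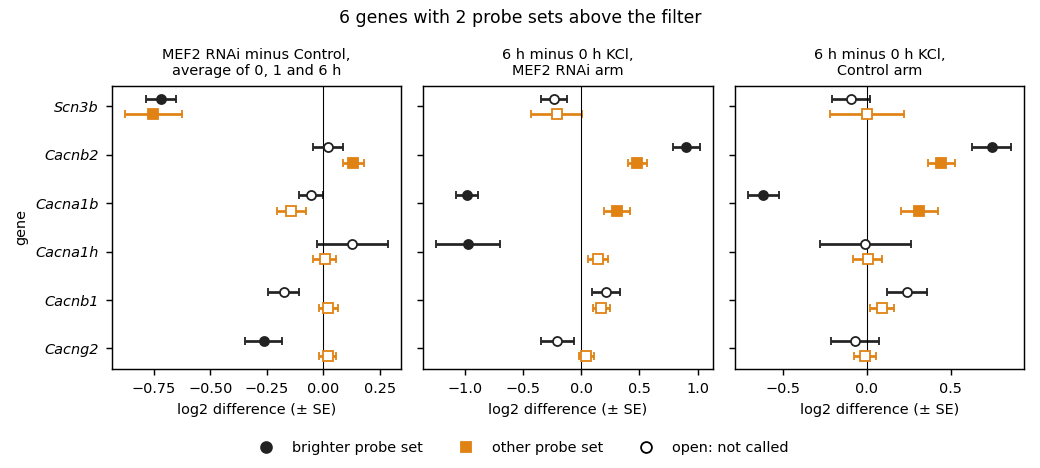
Log2 differences with SE of the 2 probe sets above the filter of 6 genes, for RNAi minus Control on average (left), and for 6 h minus 0 h of KCl in RNAi neurons (middle) and Control neurons (right). Circles are the probe set with the higher mean signal, squares the other, and open symbols were not called. The Scn3b pair lies at -0.72 and -0.75 on the left, and the Cacna1b pair lies on opposite sides of 0 in the middle and on the right.

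Of the 25 genes, 15 were called in at least 1 of the 11 comparisons, as were 67.1% of all genes tested. The other 10 were called in none, as were 32.9% of all genes: Scn10a, Scn4b, Cacna1a, Cacna1e, Cacna1f, Cacna1i, Cacna2d1, Cacnb3, Cacng3 and Cacng4. The replicate block changes this list for Cacna2d1, called with it at 6 h (RNAi against Control, adjusted p = 0.041) and on average, and for Cacng3, called with it at 0 h (adjusted p = 0.0127), on average, and in the comparisons of 6 h with 0 h in RNAi neurons (adjusted p = 0.0265) and of 6 h with 1 h in Control neurons. Cacna1a, the main channel of fast transmitter release, stayed between 261 and 346 on the 18 arrays, and Cacna1e between 230 and 267. Cacna2d1, the alpha2delta subunit bound by gabapentin, ranged from 1121 to 2027, and Cacnb3 from 818 to 1244. The dimmer ones were Cacna1f (138 to 203), Cacna1i (138 to 167), Cacng3 (136 to 215) and Cacng4 (120 to 199), near the filter.

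Genes whose products bind or regulate these channels were measured beside them, from a list of 30, of which 27 were on the array and 23 above the filter. With RNAi on average 1 of the 23 was higher and 6 were lower, 30.4% called against 37.6% of all genes. At 6 h against 0 h of KCl 5 were higher and 3 lower in RNAi neurons, 34.8% called against 40% of all genes. In Control neurons 5 were higher and 0 lower, 21.7% called against 41.6% of all genes. Fgf12 and Fgf13, cytosolic proteins that bind the sodium channel tail, fell with RNAi by 0.39 (SE 0.05; adjusted p = 6.85e-06) and 0.16 (SE 0.03; adjusted p = 0.00063). Rimbp2, which ties presynaptic calcium channels to the release site, fell by 0.52 (SE 0.07; adjusted p = 2.66e-05). Rem2, a small GTPase that restrains calcium channels, was higher with RNAi by 0.49 on average (SE 0.11; adjusted p = 0.00259). At 6 h alone 0 of the 23 partner genes, and so not Rem2, were called higher with RNAi, where 8.67% of all genes were. Rem2 also rose at 6 h of KCl, by 0.82 in RNAi neurons (adjusted p = 0.00316) and 1.54 in Control neurons (adjusted p = 1.1e-05). Gem, of the same family, rose by 2.74 in RNAi neurons (SE 0.27; adjusted p = 1.21e-06) and 2.69 in Control neurons (adjusted p = 1.22e-06). Nedd4l, a ubiquitin ligase of membrane channels, rose by 0.90 in RNAi neurons (SE 0.15; adjusted p = 0.000134) and 0.82 in Control neurons (adjusted p = 0.000302).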

How the data were processed

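Messenger RNA was measured on 18 Affymetrix arrays, 3 in each of 6 groups defined by shRNA and hours of KCl. The authors deposited linear-scale intensity values, 1 for every probe set of an array, made from biotin-labelled cRNA of total RNA (RNeasy Micro kit), per the labels' protocols; no source used here records how probes were summarised or arrays normalized. Of 31099 probe sets, 20832 carried 1 gene symbol, 436 several, and 9831 are unnamed here. Signals under the table's 20th percentile were raised to it, so changes of dim genes are understated, and log2 was taken. All 18 arrays entered 1 limma fit (version 3.58.1, R 4.3.3, lmFit then eBayes) with a mean per group and 12 residual degrees of freedom. The two-sided p-values were Benjamini-Hochberg adjusted over 10934 genes, and genes were called under 0.05. The fit was checked on simulated data with independent noise for each array. That check could not test the effect of deviations shared by arrays of the same replicate number.

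Alternatives were quantile normalization, no filter, a floor at the 5th percentile, the mean of a gene's probe sets, the replicate number as a block, only the groups compared, a variance trend, and leaving out each array. The replicate numbers pair the arrays: deviations from group means of arrays with the same number correlated at 0.168 to 0.741, and all pairs exceeded 0.1. The genes, lists and tests were chosen with earlier results of these data known. Named genes were all members, Mef2a, Mef2d, Fos, Arc and Bdnf as checks, and the 6 partner genes with the smallest adjusted p. Promoters came from RefSeq (GRCr8). The number of arrays limits the precision.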

Additional observations from a re-analysis of the deposited data

How the results depend on the processing

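Of the 7 alternatives, only quantile normalization and the mean of a gene's probe sets could change a log2 difference of these genes. No called difference reversed under them. The others changed only the p-values, so they could not test the direction. Of 39 calls, 39 were kept under quantile normalization, the floor at the 5th percentile, the variance trend and the replicate block. Without the filter 37 were kept, and with the mean of a gene's probe sets 34. Of 31 that could be refitted on the groups compared alone, 28 were kept. None of the channel genes above the filter was at the floor, so the lower floor left their signals unchanged. The mean could not change the signals of Scn1a, Scn2a, Scn3a, Cacna1g, Cacng7 and Cacna2d3, which have 1 probe set. For Scn2b it only scaled down the brighter probe set. The replicate block lost none of these calls and raised the counts of genes called between RNAi and Control to 6 at 0 h and 9 at 6 h, against 3 and 3. Without the filter, 1 gene was called in the interaction at 6 h, Cacnb4 (-0.17; adjusted p = 0.000217), a dim gene at the floor on 15 of 18 arrays. Cacnb4 was then also called lower with RNAi at 6 h (-0.17; adjusted p = 1.08e-06) and on average (-0.06; 7.25e-06). In Control neurons it was called higher at 6 h than at 0 h and 1 h. The dim gene Cacng5 was then called higher at 6 h against 0 h in RNAi neurons (0.24; adjusted p = 0.00212) and Control neurons (0.20; 0.00684). It was also called higher at 6 h against 1 h in Control neurons (0.26; 0.00166). Leaving out 1 array gave 2 to 5 genes called between RNAi and Control at 0 h, 3 to 5 at 1 h, 2 to 5 at 6 h and 8 to 10 on average. The 5 at 0 h came without RNAi 6 h replicate 1 and the 5 at 6 h without RNAi 6 h replicate 2. For KCl the ranges were 7 to 10 at 6 h in RNAi neurons, 6 to 7 in Control neurons and 5 to 7 for 6 h against 1 h. The interactions stayed at 0, and so did 1 h against 0 h in both arms. The 3 arrays a group and dim probe sets limit what could be detected.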
